A study of Mus musculus with 12 samples.

Results

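Transcripts of 9 myeloid C-type lectin receptors were followed in the mouse abdominal aorta, with and without Ccn2 in smooth muscle cells (SMC), under saline or angiotensin II (Ang II). The receptors were chosen by name, with earlier results of these data known. They are Clec4n, Clec4d, Clec4e, Clec7a, Clec5a, Clec4a2, Clec12a, Clec10a and Mgl2, 9 of the 55092 features in the expression table. RNA-Seq was performed on 12 male mice in 4 groups of 3, with 1 library per mouse. CCN2fl/fl mice carry floxed Ccn2 alleles and no Cre, whereas CCN2SMCΔ mice carry in addition Myh11-Cre-ERT2, a tamoxifen-inducible Cre driven by a smooth muscle myosin promoter. Both genotypes received 5 doses of tamoxifen from 8 weeks of age, followed by a washout of 2 weeks. The groups were CCN2fl/fl with saline (CFS), CCN2SMCΔ with saline (CSS), CCN2fl/fl with Ang II (CFA) and CCN2SMCΔ with Ang II (CSA), where Ang II was infused at 500 ng/kg/min from mini-osmotic pumps and all infusions lasted 7 days. Control mice without floxed alleles, or with Cre and without floxed alleles, were not analysed here. The whole tissue was sequenced, so that Cre acted in SMC while the receptors are read from any cell of the wall.

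C-type lectin receptors are membrane proteins with which macrophages, monocytes, neutrophils and dendritic cells bind carbohydrates, lipids and material from damaged cells. Dectin-2 (Clec4n), MCL (Clec4d) and Mincle (Clec4e) signal through the Fc receptor gamma chain Fcer1g, MDL-1 (Clec5a) through the adaptor DAP12 (Tyrobp), and Dectin-1 (Clec7a) through a tyrosine motif of its own. These routes recruit the kinase Syk, and most of them lead through Card9 to NF-κB and inflammatory cytokines. DCIR (Clec4a2) and MICL (Clec12a) instead carry inhibitory motifs that recruit phosphatases such as SHP-1 (Ptpn6). MGL1 (Clec10a) and MGL2 (Mgl2) bind galactose and N-acetylgalactosamine and are widely used as markers of alternatively activated macrophages and of some dendritic cells.

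The libraries held 14558580 to 23107807 fragments, recovered from the deposited FPKM (fragments normalised to gene length and library size). Ccn2, the deleted gene, was at 563.5 to 1105 FPKM in CFA and at 254.9 to 398.6 in CSA, whereas CSS (435.6 to 639.9) overlapped with CFS (480.1 to 1108). The summed FPKM of 8 SMC markers was 5532 to 8420 in CFA and 799.8 to 959.3 in CSA. The CSA library of mouse 03 stood apart, at root mean square log2 differences of 1.21 and 1.2 from the other CSA libraries, which lay 0.51 apart. In it, genes of low GC content read higher relative to the other CSA libraries (median log2 difference 0.59 in the lowest of 5 equal GC classes and -1.04 in the highest). The receptor transcripts have a GC content of 36.8% (Clec4a2) to 50.3% (Mgl2) against a median of 49.7% over tested genes, and their log2 differences between mouse 03 and the other CSA mice ran from -0.20 (Mgl2) to 0.98 (Clec7a). The part of this in their levels was not tested, and values without mouse 03 are given where it decides a rank or a call. In CFA, mouse 72 was above the mean of the other CFA mice in all 9 receptors, by 0.57 (Mgl2) to 2.22 (Clec5a) on the log2 scale, and in 10 pan-myeloid markers by a mean of 1.08.

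On GRCm38 (mm10), 7 of the 9 genes lie on chromosome 6. Clec4a2 (chr6:123106428-123143999, plus strand), Clec4n (chr6:123229843-123247021, plus), Clec4d (chr6:123262111-123275265, plus) and Clec4e (chr6:123281789-123289870, minus) follow one another in the Dectin-2 cluster, with Clec4b2 as the other lectin between them. Clec12a (chr6:129342691-129365303, plus) and Clec7a (chr6:129461591-129472779, minus) lie together in the Dectin-1 cluster, and Clec5a (chr6:40574894-40585821, minus) lies apart. Mgl2 (chr11:70130329-70137550, plus) and Clec10a (chr11:70156197-70170834, plus) are neighbours on chromosome 11. The GENCODE M21 annotation types Clec7a as a polymorphic pseudogene and the other members as protein coding, and no member shares exonic bases with another gene. Of the stretches of 50 bases in their transcripts, 13.1% of Mgl2 and 9.02% of Clec10a also occur in other genes, in both cases mainly in each other, and 6.69% of Clec4a2 occurs elsewhere, mainly in Clec4a4. These are shares of stretches and not of fragments. How far the counts of these 3 genes are affected was not tested.

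The bases upstream of the start site are shown for Clec4d and Clec4e, neighbours in the cluster that both rose under Ang II in CCN2SMCΔ mice, and for Mgl2, the member that changed the other way. They are RefSeq sequences of GRCm38.p6, read 5′ to 3′ on the strand of the gene, from chr6:123261857-123262106 (plus), chr6:123289872-123290121 (minus) and chr11:70130107-70130328 (plus). Capitals mark matches on either strand to GAGGAA, the core bound by the myeloid factor PU.1 (Spi1), and to TTGCNNAA, a core bound by C/EBP factors.

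Clec4d: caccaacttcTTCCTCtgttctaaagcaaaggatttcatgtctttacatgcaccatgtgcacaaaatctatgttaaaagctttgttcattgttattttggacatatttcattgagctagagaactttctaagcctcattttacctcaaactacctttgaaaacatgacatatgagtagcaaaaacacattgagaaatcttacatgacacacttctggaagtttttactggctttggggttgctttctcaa

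Clec4e: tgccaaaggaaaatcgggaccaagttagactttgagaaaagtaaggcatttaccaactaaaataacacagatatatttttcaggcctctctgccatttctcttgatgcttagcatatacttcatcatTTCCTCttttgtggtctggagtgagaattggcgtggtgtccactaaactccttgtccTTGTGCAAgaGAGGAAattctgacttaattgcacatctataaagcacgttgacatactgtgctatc

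Mgl2: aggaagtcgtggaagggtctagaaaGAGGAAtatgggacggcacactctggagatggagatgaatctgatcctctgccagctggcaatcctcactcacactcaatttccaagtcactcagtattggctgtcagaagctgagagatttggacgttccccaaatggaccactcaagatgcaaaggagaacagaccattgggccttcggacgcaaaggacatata

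In Clec4e the TTGCNNAA match began 66 bases and the nearer GAGGAA match 56 bases before the end of the sequence shown. The Clec4d sequence held 1 GAGGAA match, which began 240 bases before its end, and that of Mgl2 held 1, which began 197 bases before its end. Windows of 300 bases around the start were found for 7 of the 9 members, Clec4n and Clec10a being the others. GAGGAA was present in the windows of 6 of these 7 (all but Clec4a2) and in 28.28% of all 32851 windows of this length. TTGCNNAA was present in Clec4e and Clec12a (10.8% of all windows). The NF-κB core, GGG and CC with any 5 bases between them, was present in Mgl2 (50.79%), and the STAT6 core, TTC and GAA with any 4 bases between them, in Clec5a and Clec7a (6.953%). All were searched on both strands, and no match overlapped another. These are matches of letters and do not show binding.

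The first question was how loss of Ccn2 in SMC bears on the receptors under Ang II, which the comparison of CSA with CFA addresses. Between these groups 7 receptors rose and Mgl2 fell, and Clec10a did not pass. Calls required a log2 fold change over 1.5 in either direction and a limma p, adjusted by Benjamini-Hochberg over 14676 tested genes, under 0.05. These 8 of 9 receptors called compare with 17.2% of all tested genes (8.95% called higher and 8.27% lower), and 8 were called without mouse 03 as well. Because the receptors were chosen with earlier results of these data known, this and later comparisons with all tested genes are descriptions and not independent support. The mice of CSA and CFA did not overlap in the same 8, with or without mouse 03, against 23.4% of tested genes upwards and 25.1% downwards. All 9 receptors passed the filter of 1 FPKM in 3 libraries, but Clec4e reached that level in 0 libraries outside CSA, and Clec4d, Clec5a and Clec12a in 1 each. These 4 passed the filter only through CSA and had to differ. Their calls, p-values and lack of overlap, here and in the other comparisons with CSA, therefore add no support. No adjusted p is given for their difference between CSA and CFA. Of the other 5, 3 were called higher (Clec4n, Clec7a and Clec4a2) and 1 lower. In whole tissue, more cells of a type and more RNA per cell cannot be told apart.

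**Figure D1:**
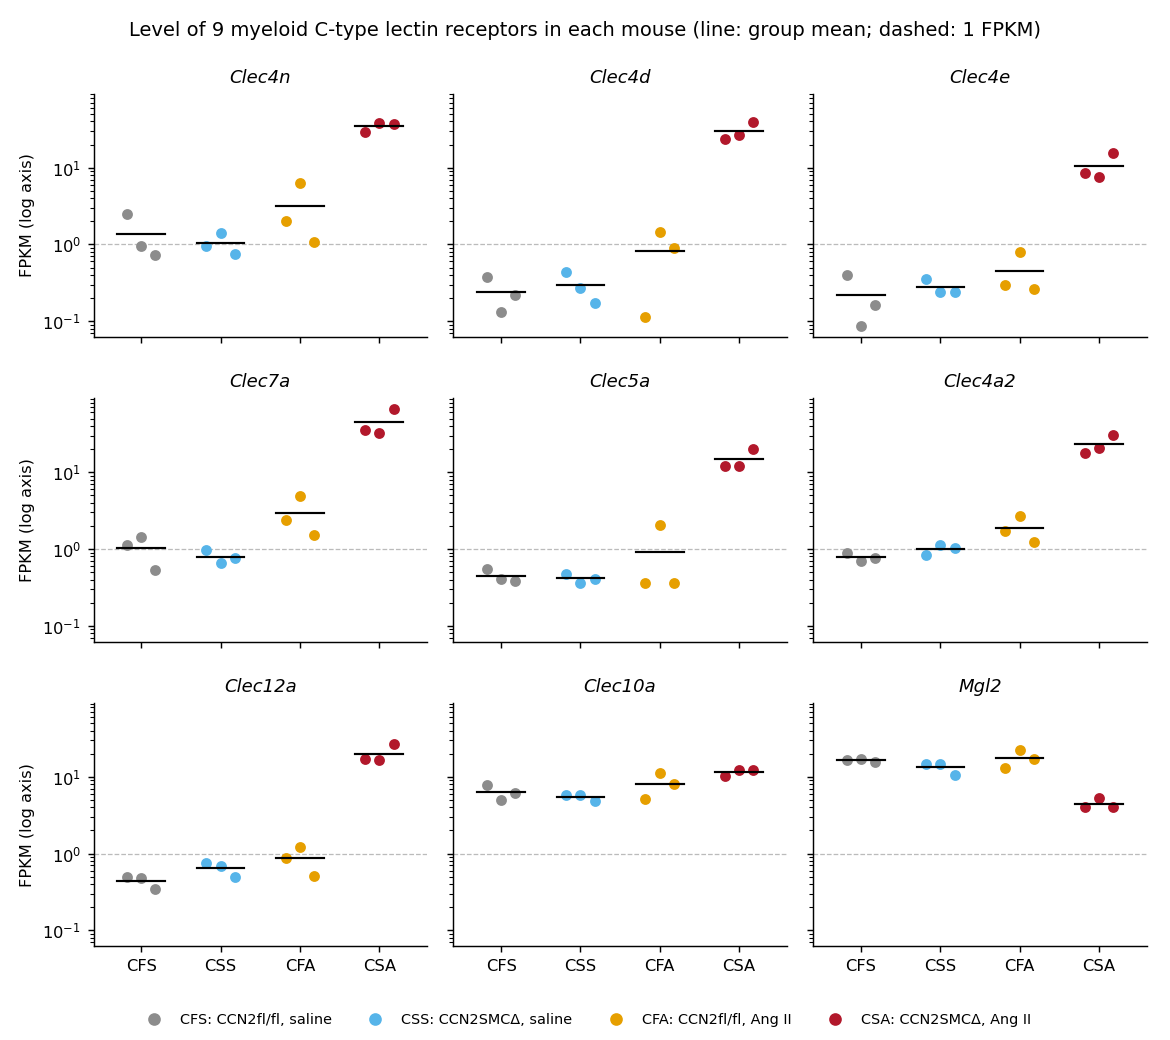
FPKM of each receptor (log axis) in each of the 3 mice of the 4 groups, with the group mean as a line and 1 FPKM dashed. In 7 panels the CSA mice lie above all other mice, in the Mgl2 panel they lie below them, and in the Clec10a panel they overlap with CFA.

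Among the receptors that signal through Fcer1g, Clec4d changed most. Its level was 0.372, 0.134 and 0.218 FPKM in CFS, 0.437, 0.270 and 0.172 in CSS, 0.115, 1.44 and 0.885 in CFA, and 23.8, 26.3 and 38.8 in CSA. All CSA mice were above all others, and the saline values rested on only 4 to 13 fragments per mouse. Clec4d was 42.2-fold higher in CSA than in CFA (log2 fold change 5.40 ± 0.62 SE). The size was uncertain, at 23.6-fold without mouse 71 of CFA, in which 4 fragments were counted, 63.2-fold without mouse 72, and 17.4-fold with a pseudocount of 1.

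Mincle (Clec4e), which binds glycolipids and forms complexes with Clec4d, was at 0.403, 0.0861 and 0.163 FPKM in CFS, 0.358, 0.239 and 0.241 in CSS, 0.296, 0.807 and 0.266 in CFA, and 8.56, 7.61 and 15.4 in CSA. The lowest CSA mouse was thus above the highest mouse of any other group, and mouse 03 was the highest. Clec4e was 19.9-fold higher in CSA than in CFA (log2 4.31 ± 0.47), or 7.70-fold with a pseudocount of 1. Dectin-2 (Clec4n), which binds mannose-rich glycans, had the highest mean of these 3 in every group. Its level was 2.48, 0.941 and 0.735 FPKM in CFS, 0.947, 1.41 and 0.744 in CSS, 2.0, 6.31 and 1.06 in CFA, and 29.5, 37.8 and 37.1 in CSA. The CFA mice overlapped with both saline groups, and mouse 72 alone lay above them. Clec4n was 13.9-fold higher in CSA than in CFA (log2 3.79 ± 0.57, limma adjusted p = 3.37e-04), or 22.2-fold without mouse 72.

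Dectin-1 (Clec7a) is the receptor for β-glucan. It was at 1.13, 1.44 and 0.528 FPKM in CFS, 0.959, 0.655 and 0.767 in CSS, 2.40, 4.97 and 1.54 in CFA, and 35.0, 32.2 and 66.1 in CSA. Here the CFA mice were all above the saline mice of both genotypes, and the CSA mice above them all. The difference between CSA and CFA was 15.3-fold (log2 3.94 ± 0.45, adjusted p = 5.10e-05), and log2 3.61 without mouse 03. MDL-1 (Clec5a), which pairs with DAP12, was at 0.549, 0.404 and 0.377 FPKM in CFS, 0.476, 0.365 and 0.407 in CSS, 0.359, 2.02 and 0.356 in CFA, and 12, 12.1 and 20.3 in CSA. Mice 71 and 74 of CFA were below every saline mouse, and mouse 72 was above them. Clec5a was 18.9-fold higher in CSA than in CFA (log2 4.24 ± 0.51), or 31.5-fold without mouse 72 and 8.66-fold with a pseudocount of 1.

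The inhibitory receptors rose together with the activating ones. DCIR (Clec4a2) was at 0.887, 0.694 and 0.753 FPKM in CFS, 0.846, 1.12 and 1.04 in CSS, 1.74, 2.72 and 1.24 in CFA, and 17.6, 20.8 and 30.9 in CSA. Its CFA mice were all above the saline mice and below the CSA mice. Clec4a2 was 11.8-fold higher in CSA than in CFA (log2 3.56 ± 0.28, adjusted p = 5.24e-06). MICL (Clec12a), a receptor for uric acid crystals, was at 0.489, 0.483 and 0.346 FPKM in CFS, 0.759, 0.683 and 0.490 in CSS, 0.880, 1.22 and 0.512 in CFA, and 16.8, 16.6 and 26.8 in CSA. Only the CSA mice stood clear of the rest. The difference between CSA and CFA was 21.3-fold (log2 4.41 ± 0.31), or 11.15-fold with a pseudocount of 1.

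The galactose-type receptors behaved otherwise. Mgl2 was the most abundant of the 9 in the 3 other groups, at 16.3, 17.1 and 15.7 FPKM in CFS, 14.7, 14.6 and 10.5 in CSS, and 13, 22.3 and 17.2 in CFA, and it was at 4.02, 5.36 and 4.02 in CSA. Every CSA mouse was below every other mouse. Mgl2 was 3.81-fold lower in CSA than in CFA (log2 fold change -1.93 ± 0.21, limma adjusted p = 3.33e-05), a call that was lost with limma's treat, which tests against the fold limit itself (adjusted p = 0.31). Its neighbour Clec10a was at 7.82, 5.05 and 6.08 FPKM in CFS, 5.77, 5.71 and 4.79 in CSS, 5.18, 11.2 and 8.02 in CFA, and 10.2, 12.4 and 12.3 in CSA. Mouse 72 of CFA lay within the CSA range, and the difference between CSA and CFA was not called (log2 0.57 ± 0.25, 95% interval 0.02 to 1.13, adjusted p = 0.0928). Without mouse 72 it was log2 0.84 with an adjusted p of 0.0162, still under the fold limit. The ratio of Mgl2 to Clec10a, chosen after its values were seen and given without a test, was 1.99 to 3.38 over the 9 mice of CFS, CSS and CFA and 0.327 to 0.434 in CSA.

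Under saline, the comparison of CSS with CFS asks what deletion of Ccn2 does without Ang II. Here 0 receptors were called (limma; 0.0136% of all tested genes), 0 had an unadjusted p under 0.05 (6.3% of tested genes), and voom on the recovered fragments also called 0. Estimates ran from log2 -0.32 (Mgl2, 95% interval -0.77 to 0.14) to 0.46 (Clec12a, -0.22 to 1.14). The intervals of the low receptors were wide, from -1.16 to 1.58 for Clec4d and from -1.51 to 1.01 for Clec4n. In Clec12a all CSS mice were above all CFS mice, by as little as 0.490 against 0.489 FPKM, and in Mgl2 all were below. Such separation was seen in 11.1% of tested genes upwards and in 9.31% downwards.

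The response of CCN2fl/fl mice to Ang II was read from CFA against CFS. All 9 estimates were above 0, with a median of log2 0.80 against -0.0012 over all tested genes, and 0 receptors were called by limma (0.0273% of tested genes) or by voom. An unadjusted p under 0.05 was reached by 3 receptors, against 9.42% of tested genes. These were Clec4a2 (log2 1.13, limma adjusted p = 0.177), Clec7a (1.38, adjusted p = 0.328) and Clec12a (0.79, adjusted p = 0.443). In the same 3 receptors all CFA mice lay above all CFS mice, which was so in 9.44% of tested genes. Without mouse 72 the estimates ran from -0.24 (Clec5a) to 0.94 (Clec7a), and those of Clec5a and Mgl2 (-0.13) changed sign.

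In CCN2SMCΔ mice the response to Ang II, CSA against CSS, was large. It was called for 8 of 9 receptors (20.3% of tested genes, 10.9% higher and 9.36% lower), a comparison that shares the CSA libraries with the one above. The called log2 fold changes were 6.26 ± 0.62 (SE) for Clec4d, 5.58 ± 0.45 for Clec7a, 4.98 ± 0.57 for Clec4n, 4.81 ± 0.51 for Clec5a, 4.75 ± 0.47 for Clec4e, 4.74 ± 0.31 for Clec12a, 4.36 ± 0.28 for Clec4a2 and -1.55 ± 0.21 for Mgl2. The estimate for Mgl2 lay near the fold limit, and its call was lost without mouse 54 or 55 of CSS or mouse 01 or 03 of CSA (log2 -1.47 to -1.48), with adjusted p from 3.40e-04 to 8.80e-04. It was also lost with a pseudocount of 1 (log2 -1.38) and with limma's treat (adjusted p = 1). The estimates of the receptors called higher were smaller with a pseudocount of 1. They were log2 4.59 for Clec7a, 4.54 for Clec4d, 4.14 for Clec4n and 3.65 for Clec12a. For Clec4a2, Clec5a and Clec4e they were 3.55, 3.44 and 3.11. Clec10a was higher by log2 1.09 ± 0.25 (limma adjusted p = 0.00448), below the fold limit, and all its CSA mice were above all CSS mice. The mice of these groups did not overlap in any of the 9 receptors, against 26.3% of tested genes upwards and 29.1% downwards. Clec4d, Clec4e, Clec5a and Clec12a passed the filter only through CSA, so their separation was set by the filter and adds no support.

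Whether the genotypes differed in their response to Ang II was tested as the interaction, the genotype difference under Ang II minus that under saline. It was called for 8 of 9 receptors, also without mouse 03 (15.2% of tested genes, 7.89% higher and 7.31% lower). The estimates were log2 5.19 ± 0.88 (SE) for Clec4d, 4.31 ± 0.73 for Clec5a, 4.20 ± 0.63 for Clec7a, 4.04 ± 0.81 for Clec4n, 3.95 ± 0.67 for Clec4e, 3.95 ± 0.44 for Clec12a, 3.23 ± 0.40 for Clec4a2 and -1.61 ± 0.29 for Mgl2. Among the called receptors that passed the filter without CSA, limma adjusted p ran from 2.67e-04 (Clec4a2) to 0.00399 (Clec4n). Clec10a had an estimate of 0.77 ± 0.36 and an adjusted p of 0.140. The interaction of Mgl2 was -1.42 without mouse 72 of CFA and -1.44 with a pseudocount of 1, both under the fold limit. With that pseudocount it was 4.06 for Clec4d, 3.29 for Clec12a, 3.14 for Clec5a and 2.87 for Clec4e. Without mouse 72 it was 5.05 for Clec5a and 4.72 for Clec4n. With limma's treat 4 receptors were called, and the calls of Clec4e (adjusted p = 0.0638), Clec4n (0.114), Clec5a (0.0519) and Mgl2 (1) were lost.

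**Figure D2:**
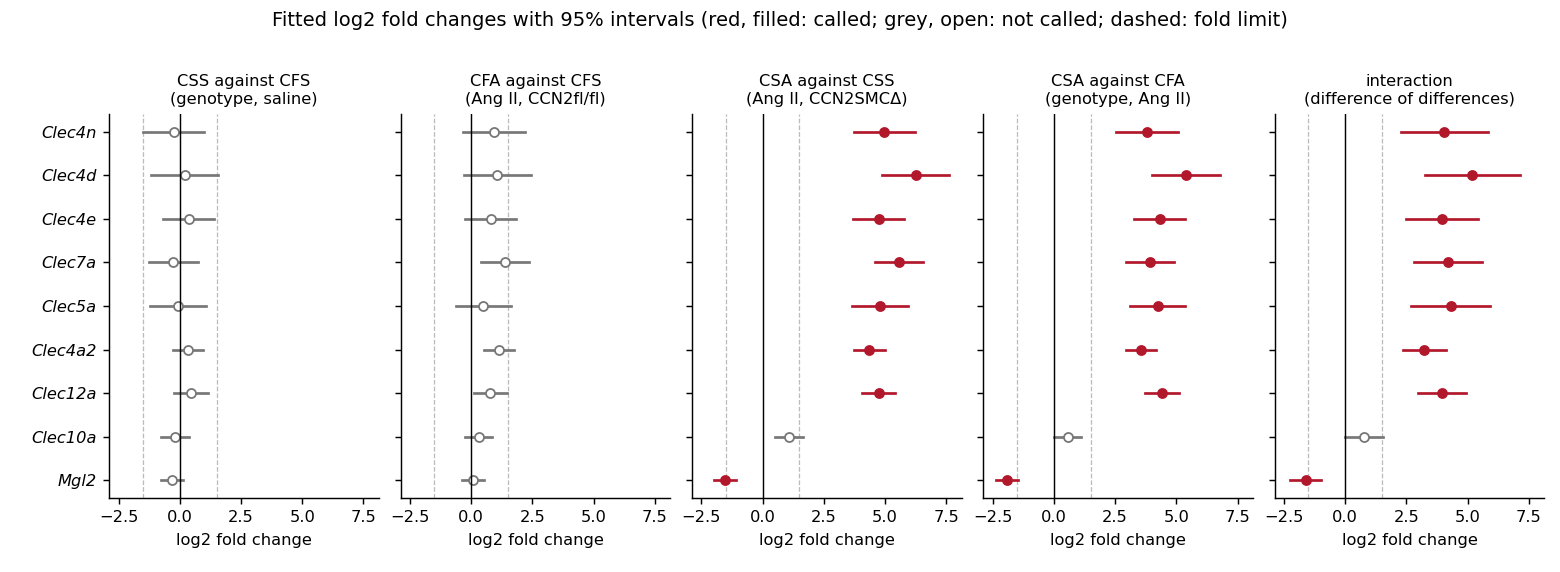
Log2 fold change (points) with 95% interval (lines) of each receptor in the 4 comparisons of groups and in the interaction, red where called and grey where not, with the fold limit of 1.5 dashed. In the first 2 panels no receptor was called. In the others 7 receptors lie well to the right of the limit, Clec10a inside it, and Mgl2 to the left.

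Because FPKM is per gene length, levels of the receptors within a library can be set side by side. The summed FPKM of the 9 receptors was 27.2 ± 2.87 (SD, n = 3) in CFS, 23.2 ± 3.44 in CSS, 36.7 ± 14.4 in CFA and 193.4 ± 50.9 in CSA. Of this sum Mgl2 made up 60.5% ± 6.08 (SD) in CFS, 57.1% ± 1.89 in CSS, 49.2% ± 6.66 in CFA and 2.43% ± 0.775 in CSA. Clec10a made up 23.1% in CFS, 23.6% in CSS, 22.3% in CFA and 6.20% ± 1.2 in CSA. Both galactose-type receptors thus held 63.3% to 87.5% of the sum in the 9 mice outside CSA and 6.48% to 10.4% in CSA. Clec7a held 22.4% ± 3.73 of the sum in CSA, Clec4n 18.5% ± 3.68, Clec4d 15.3% ± 0.167 and Clec4a2 11.9% ± 0.615. The shares sum to 100% and so do not move independently, and 4 of the receptors had to differ by the filter, so they are given without a test. The share of Clec10a was lower in CSA although its own mean was 11.6 FPKM there and 8.14 in CFA, a difference that was not called.

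**Figure D3:**
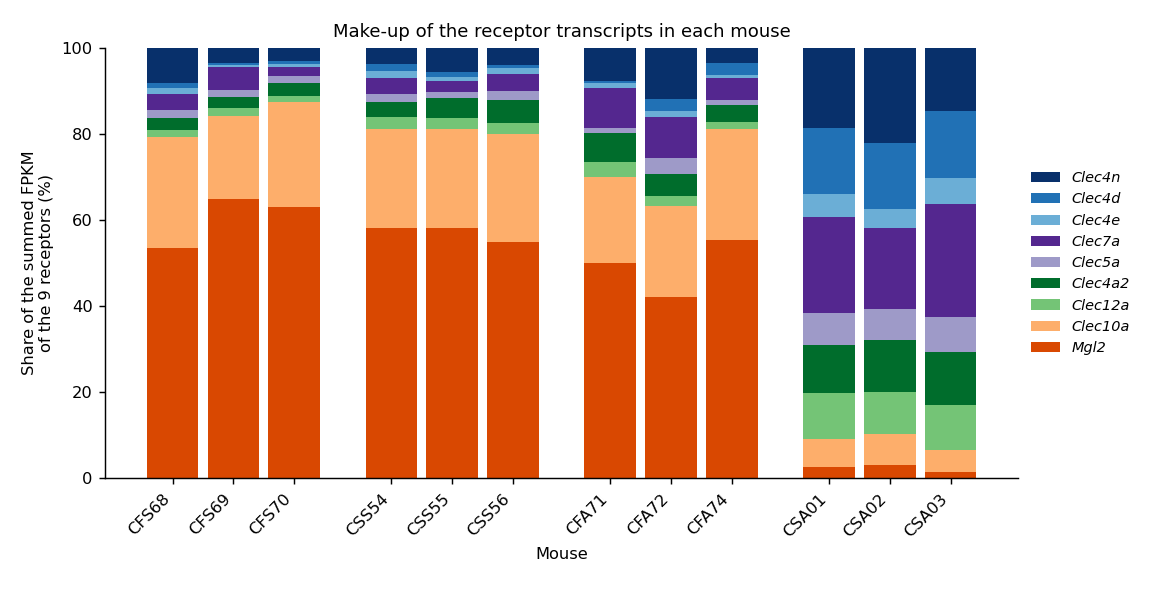
Share of each receptor in the summed FPKM of the 9 receptors (stacked bars to 100%) in each of the 12 mice. Mgl2 and Clec10a (orange) fill 63.3% to 87.5% of the bars of CFS, CSS and CFA, and 6.48% to 10.4% of those of CSA.

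The order of the mean levels was the same at its upper end in CFS, CSS and CFA, with Mgl2 first, Clec10a next and then Clec4n, and Clec4d and Clec4e at the lower end. In CFS and CSS the ranges of Mgl2, Clec10a and Clec4n did not overlap with each other, whereas most neighbours further down did. Among CFA mice only Mgl2 stood clear of its neighbour. In CSA the order of means was Clec7a (44.4 ± 18.8 FPKM, SD, n = 3), Clec4n (34.8 ± 4.6), Clec4d (29.6 ± 8.02), Clec4a2 (23.1 ± 6.99), Clec12a (20.1 ± 5.84), Clec5a (14.8 ± 4.75), Clec10a (11.6 ± 1.2), Clec4e (10.5 ± 4.25) and Mgl2 (4.47 ± 0.772). Every pair of neighbours in this order overlapped except Clec4e and Mgl2. The first rank of Clec7a rested on mouse 03, without which the means of Clec7a and Clec4n were 33.6 FPKM each.

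Markers of myeloid cells in general moved with the receptors. The 10 pan-myeloid markers, among them Aif1, Ptprc and Lcp1, were all called higher in CSA than in CFA (median log2 fold change 3.23; Itgam passed the filter only with CSA), and their summed FPKM was 148.9 to 196.3 in CFS, 172.4 to 220.7 in CSS, 237.2 to 476.3 in CFA and 1699 to 1950 in CSA. To set the receptors beside them, the mean log2(FPKM + 0.1) of these markers was subtracted from each receptor in the same mouse. Relative to the markers, CSA exceeded CFA by log2 2.22 for Clec4d, 1.23 for Clec12a, 1.13 for Clec4e, 1.06 for Clec5a and 0.76 for Clec7a. The first 4 of these passed the filter only through CSA and had to differ, so their values are given without a test. For Clec7a the exact two-sided permutation p was 0.1, the smallest possible, unadjusted over 9 receptors. For Clec4n (0.61, exact p = 0.3) and Clec4a2 (0.38, exact p = 0.2) the mice of CFA and CSA overlapped. Clec10a was lower relative to the markers by log2 -2.61 and Mgl2 by -5.11 (exact p = 0.1 each). With a pseudocount of 1 the relative difference was -0.01 for Clec4e, 0.16 for Clec5a, 0.53 for Clec12a and 1.17 for Clec4d. With Ptprc alone as the reference it was 1.66 for Clec4d, 0.68 for Clec12a, 0.58 for Clec4e, 0.51 for Clec5a, 0.20 for Clec7a, 0.06 for Clec4n and -0.18 for Clec4a2, and it was -3.16 for Clec10a and -5.66 for Mgl2. This change of reference lowers all 9 values by the same amount.

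**Figure D4:**
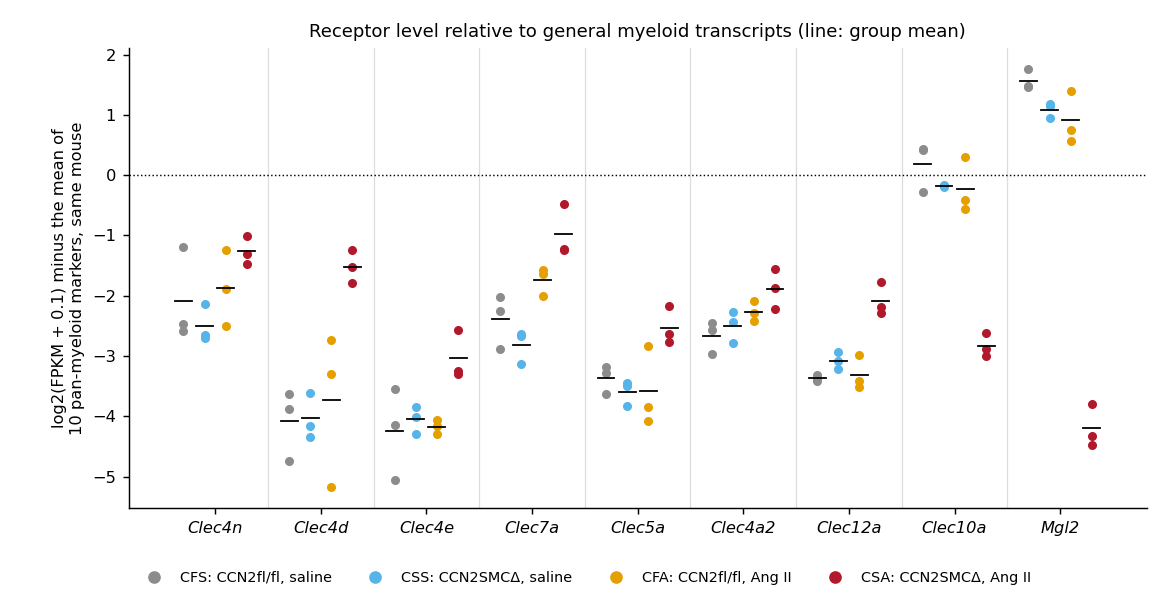
Level of each receptor relative to 10 pan-myeloid markers in the same mouse (difference of log2 values; 0 would be the level of the markers' mean), with 3 mice per group and the group mean as a line. CSA lies above CFA without overlap for Clec4d, Clec4e, Clec7a, Clec5a and Clec12a and below it for Clec10a and Mgl2.

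Markers of single myeloid cell types moved as well, and their part in the receptor levels was not tested. Many of these genes passed the filter on low values only with the CSA libraries. The filter thus selects them for high values in CSA, so counts are given for the others. Of 10 tested neutrophil markers 6 passed only so, and the other 4 were called higher in CSA than in CFA. The largest log2 fold changes of the list were 6.52 (Ngp, passed only with CSA), 5.27 (S100a8) and 5.12 (Cxcr2, passed only with CSA), with sums of 14.0 to 33.1 FPKM in CFA and 550.4 to 598.0 in CSA. Ngp was listed at 0 in all CSS and CFA mice, and Ly6g and Camp in all CFS mice. In CSA, Ly6g was at 0.680 FPKM in mouse 01 and at 0 in mice 02 and 03, and it was not tested. Of 8 monocyte markers 4 passed only with CSA, and 2 of the other 4 were called higher, Plac8 (5.02) and Ccr2 (4.10). Their summed FPKM of 580.6 to 942.3 in CFA and 627.2 to 761.2 in CSA overlapped, Fn1 being a large part of it. Fn1 itself was lower in CSA (-0.975 ± 0.19 SE, limma adjusted p = 0.00192), below the fold limit, with all CSA mice below all CFA mice. Of 7 tested dendritic cell markers 5 passed only with CSA, among them Ccr7 (4.32), Itgax (3.66) and Flt3 (2.97). Neither of the others was called, and they were Zbtb46, a factor of the dendritic lineage (-0.80 ± 0.15 SE, limma adjusted p = 0.00158, all CSA mice below all CFA mice), and Cd209a (-0.11). The sums of this list were 7.03 to 17.8 FPKM in CFA and 34.1 to 46.4 in CSA. All 8 T cell markers passed only with CSA, and their sums were 1.06 to 3.27 FPKM in CFA and 31.6 to 44.4 in CSA. All 8 SMC markers were called lower (median -2.99). Both tested B cell genes passed only with CSA. Of these, Cd79b was called higher (2.435) and Cd79a was not called (0.03, limma adjusted p = 0.98). Of 8 fibroblast genes 0 were called at the fold limit, but 6 had a limma adjusted p under 0.05, with Lum (1.43), Col1a1 (0.96), Col1a2 (0.79) and Col3a1 (0.76) higher in CSA and Dpt (-1.13) and Pi16 (-1.17) lower, and the sums were 3737 to 4152 FPKM in CFA and 6152 to 7274 in CSA. Of the markers of other cells, 1 of 8 endothelial genes was called higher and 3 lower (sums of 215.6 to 463.9 FPKM in CFA and 136 to 173.3 in CSA), 3 of 8 adipocyte genes were called lower (98.6 to 271.2 and 60.6 to 99.9 FPKM), and 5 of 5 tested erythrocyte genes were called lower (median -3.01, sums of 766.7 to 2497 FPKM in CFA and 63.3 to 620.7 in CSA).

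Markers of alternatively activated and resident macrophages, the group to which Mgl2 and Clec10a are usually counted, were divided. Of 14, 1 (Chil3) passed the filter only with CSA, and of the other 13, 1 was called higher and 3 lower between CSA and CFA (median log2 of the 14, -0.42 against -0.04 over all tested genes). Retnla, a secreted protein induced by interleukin-4, fell by 4.11 on the log2 scale (SE 0.54, limma adjusted p = 1.46e-04), from a mean of 40.9 FPKM in CFA to 2.60 in CSA. The chitinase-like Chil3, also in the monocyte list, rose by 3.46 (SE 0.57), given without a p-value because of the filter. The chemokine Ccl24 fell by 3.16 (SE 0.505, limma adjusted p = 5.12e-04). The sums of this list were 666.9 to 775.1 FPKM in CFA and 467.7 to 573.8 in CSA. They rest largely on Gas6, at means of 339.9 FPKM in CFA and 311.6 in CSA, and on Cbr2, at 197.5 and 35.4. The means of Mrc1 (18.0 and 34.4) and Il4ra (7.81 and 49.9) were higher in CSA, so the sums do not show a common fall.

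Of 16 adaptors and enzymes through which the receptors signal, 1 (Hcst) passed the filter only with CSA, and of the other 15, 9 were called higher and 0 lower in CSA against CFA. Fcer1g rose from a mean of 22.1 ± 13.3 FPKM (SD, n = 3) in CFA to 269.6 ± 31.5 in CSA (log2 3.76 ± 0.32 SE, limma adjusted p = 8.27e-06), and Tyrobp from 25.9 ± 16.2 to 214.3 ± 81.2 (3.13 ± 0.39, adjusted p = 9.60e-05). The kinase gene Syk rose by log2 2.15 ± 0.30 (adjusted p = 2.16e-04) and Card9 by 3.05 ± 0.35 (adjusted p = 5.58e-05). Ptpn6, the phosphatase of the inhibitory arm, rose by 3.67 ± 0.24 (adjusted p = 1.49e-06). Ptpn11, also in the list, was lower by log2 -0.94 ± 0.12 (adjusted p = 1.14e-04), below the fold limit, with all CSA mice below all CFA mice. The exchange factor gene Vav1 rose by log2 3.81. Between CSS and CFS, and between CFA and CFS, 0 of the 16 were called.

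Of 16 genes that Card9 and NF-κB are known to induce, 10 were tested, and 6 of these (Tnf, Il6, Cxcl2, Ccl3, Ccl4 and Nlrp3) passed the filter only with CSA and had to differ. Of the other 4, 3 were called higher in CSA than in CFA, Il1b, Cxcl1 and Ptgs2, and Nfkbia was not called (1.04, below the fold limit). Interleukin-1β (Il1b) rose by log2 5.60 ± 0.80 (SE, limma adjusted p = 2.50e-04). The chemokines Ccl4 (6.06 ± 0.89) and Ccl3 (5.20 ± 0.60), which had to differ, are given without a p-value. Csf2 was listed at 0 in all mice but those of CSA. Of the proposed ligands made by the body 1 of 5 tested was called higher, Lgals9 (1.78 ± 0.18, adjusted p = 2.46e-05), which binds Dectin-1. Vim (-0.80) and Anxa1 (0.52) were next in size.

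Other C-type lectins showed no common direction. Of 31, 22 were tested, of which 3 passed the filter only with CSA. Of the other 19, 3 were called higher and 3 lower in CSA against CFA. Highest were Clec4a1, a further gene of the Dcir family (3.91 ± 0.39 SE, limma adjusted p = 2.08e-05), and Clec4a3 (3.78 ± 0.35, adjusted p = 1.26e-05). Next was the early activation marker Cd69, which passed only with CSA (3.69 ± 0.56). Lowest was Clec3b, the plasminogen-binding tetranectin, named after its value was seen (-3.28 ± 0.27, adjusted p = 6.99e-06). Clec4b2, which lies among the members in the cluster, was listed above 0 in only 3 mice, at up to 0.321 FPKM, and was not tested. Among 12 transcription factors of myeloid genes 1 (Batf3) passed only with CSA, and of the other 11, 4 were called higher and 0 lower, led by Spi1, which encodes PU.1 (3.28 ± 0.31), Irf8 (2.99 ± 0.37) and Irf5 (2.80 ± 0.42).

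**Figure D5:**
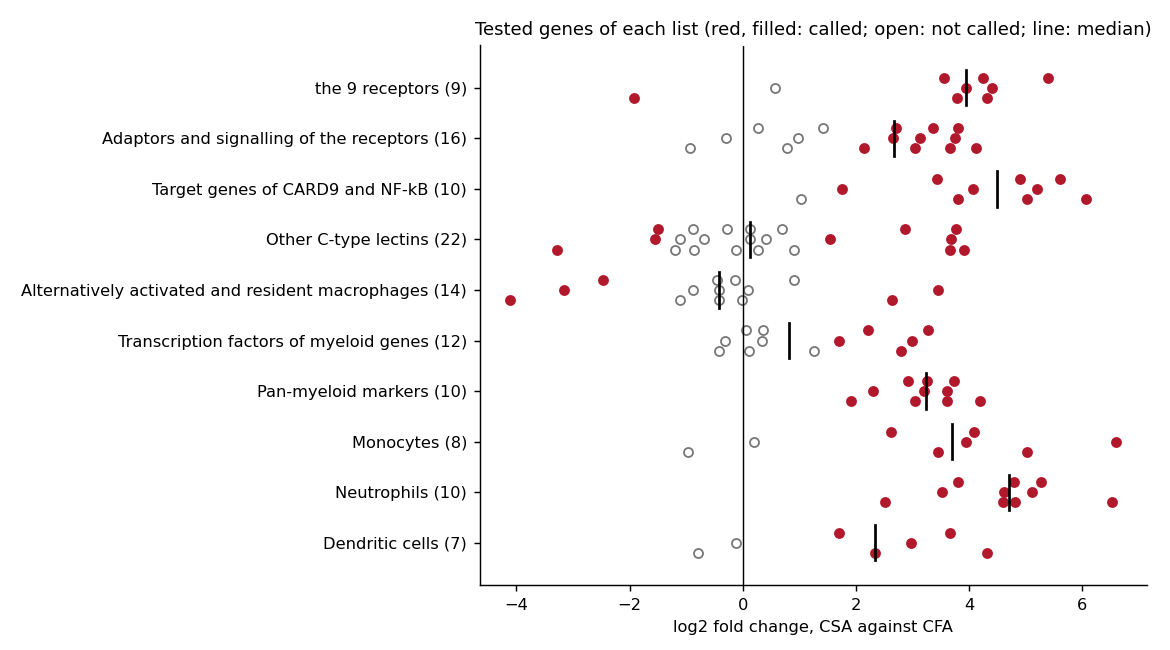
Log2 fold change between CSA and CFA of the tested genes of 10 lists (1 point per gene, red where called, number of tested genes in parentheses), with the median of each list as a line. The receptors, their adaptors, the Card9 and NF-κB targets and the myeloid markers lie mostly to the right of 0, while the other lectins and the markers of alternatively activated macrophages lie on both sides; genes that passed the filter only with CSA are included.

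The patterns over the 12 mice were compared by the root mean square difference of mean-centred log2 values, as a description. Among the members the closest pair was Clec4e and Clec12a (0.36), followed by Clec4e and Clec5a (0.36) and by Clec4a2 and Clec12a (0.37), and the pair Clec10a and Mgl2 lay 1.16 apart. Among all tested genes, Clec4a2 was nearest to Cd53 (0.25) and Cd101 (0.25), Clec4d to Il1rn (0.50) and Ighv1-81 (0.62), Clec4e to Slfn8 (0.30) and C3ar1 (0.32), and Clec4n to Tarm1 (0.36) and Itgam (0.36). Clec7a was nearest to Pilra (0.39) and Clec4a3 (0.40), Clec12a to C3ar1 (0.20) and Tlr1 (0.22), and Clec5a to Gm47242 (0.26) and a feature without an Ensembl identifier (0.28). The genes nearest to Clec10a were Akip1 (0.21) and Nipsnap3b (0.22), and those nearest to Mgl2 were Mamld1 (0.26) and Rora (0.27).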

How the data were processed

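RNA-Seq libraries were made from poly(A) RNA of abdominal aortas of 12 male mice, 1 library per mouse, and read in pairs on a NovaSeq. The authors deposited FPKM per gene and mouse, without pooling. The submitters' processing notes name HISAT2 2.0.5, StringTie 1.3.3b, featureCounts 1.5.0-p3 and mm10. The values also carry a scaling between libraries that is not given in the sources used here, so that differences are relative to it. With exon lengths of GENCODE M21, 97.8% to 98.4% of values under 100 fragments came out whole (tolerance 0.02), and these recovered fragments give the depth. All 12 sample columns were matched to labels and 0 were left unused.

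Values were analysed as log2(FPKM + 0.1), so that fold changes of low genes are understated, with limma 3.58.1 in R 4.3.3 (lmFit, eBayes with trend and robust), over all 12 libraries and without covariates. Tested genes had at least 1 FPKM in at least 3 libraries. P-values were adjusted by Benjamini-Hochberg over the 14676 tested genes of each comparison, and calls needed an adjusted p under 0.05 and a log2 fold change over 1.5, which is the study's fold limit. Levels relative to pan-myeloid markers were compared by exact permutation of mice. On data simulated for CSA against CFA, with 13440 genes tested, 195 of 198 tested genes changed 8-fold were called and 0 unchanged ones. The simulation took its means from CFS and its spread from CSS, with independent noise. Its changed genes had a mean log2(FPKM + 0.1) above 0 in CFS. It therefore does not cover genes as low as Clec4d, or a library that stands apart, such as that of mouse 03.

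The members and gene lists were chosen with earlier results of these data known. The text names all members, at most 3 genes per list with the largest change between CSA and CFA, Fcer1g, Tyrobp, Syk, Card9, Ptpn6, lectins between members in the cluster, and the 2 nearest genes of each member. Fn1, Csf2, Ly6g, Camp, Clec3b, Zbtb46, Cd209a, 6 fibroblast genes, Nfkbia, Cxcl1, Ptgs2 and genes named for passing the filter only with CSA were named after their values were seen. So were Ptpn11, Cd79a, Cd79b, Gas6, Cbr2, Mrc1 and Il4ra. Protein sequences were not analysed here, and 1 gene that the rule selects is not reported here. Alternatives were another pseudocount, other filters, other scalings, other eBayes settings, a fit of the compared groups alone, other thresholds, limma's treat, and leaving out each mouse. A voom fit of the recovered fragments was added after seeing the data. Summaries used pandas 2.3.3, numpy 2.4.6 and scipy 1.17.1, and plots used matplotlib 3.10.9, under Python 3.11.15.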

Additional observations from a re-analysis of the deposited data

Results flagged for a closer look

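For 8 receptors the genotype difference was tested to differ between Ang II and saline (interaction in limma, all past the threshold, against 15.2% of tested genes). Clec4d, Clec4e, Clec5a and Clec12a passed the filter on low values only through CSA and add no support to this count. On the log2 scale the genotype difference under Ang II exceeded that under saline by 5.19 for Clec4d, 4.31 for Clec5a, 4.20 for Clec7a, 4.04 for Clec4n, 3.95 for Clec4e, 3.95 for Clec12a and 3.23 for Clec4a2. For Mgl2 it was -1.61, the genotype difference being -1.93 under Ang II and -0.32 under saline.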

How the results depend on the processing

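Between CSA and CFA, 8 receptors were called under all alternatives except limma's treat, which puts the fold limit in the test (7, without Mgl2, adjusted p = 0.31), and a mean of at least 5 FPKM, which leaves Clec4e and Clec5a untested (6). For the interaction, treat called 4 receptors and no longer Clec4e (adjusted p = 0.0638), Clec4n (0.114), Clec5a (0.0519) or Mgl2. Leaving out 1 mouse gave 7 to 8 called receptors for the interaction and for CSA against CSS, and 8 for CSA against CFA. A pseudocount of 1 ended the call of Mgl2 in CSA against CSS (log2 -1.38) and in the interaction (-1.44). In CSS against CFS and CFA against CFS 0 were called under every alternative, voom included. Over the alternatives, 6 to 9 receptors were called in CSA against CSS. No called receptor changed sign. Scaling to equal totals moved the median of all tested genes from -0.04 to 0.04. No paired analysis was possible because the groups share no replicate numbers. With 4 to 13 fragments per saline library, small changes of Clec4d were not detectable.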
